A study of Mus musculus with 30 samples.

Results

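Cholesterol and fatty acid synthesis genes were followed in tumours of mice given interleukin-12 agents. The group held 33 genes, chosen by gene symbol from the sterol pathway, the SREBP transcription factors and their lipogenic targets, out of 24552 genes in the count table. They comprised 8 genes of the mevalonate arm, 11 of the arm from squalene to cholesterol, 4 regulators or sterol carriers, and 10 genes of fatty acid synthesis and desaturation. All 33 passed the filter on low counts, as did 15482 genes in all.

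Cells build cholesterol from acetyl-CoA by way of mevalonate, isoprenoid units, squalene and lanosterol, and they build fatty acids from the same precursor. Both routes are switched on together by SREBP transcription factors, which Scap carries from the endoplasmic reticulum to the Golgi for cleavage when sterols are scarce and which Insig proteins hold back when sterols are plentiful. When sterols accumulate, the oxysterol-activated LXR receptors switch on genes of cholesterol export. Proliferating tumour cells are known for high activity of both synthetic routes, and macrophages that take up cell debris are known for LXR-driven export.

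The tumours were subcutaneous grafts of MC38, a mouse colon carcinoma line, in female C57BL/6J mice. The mice were 10 weeks old when the cells were placed under the skin of the right flank, and treatment began at a tumour volume of 200 to 300 mm3. They were given mXTX301, a masked interleukin-12 for use in mice, once into a vein at 0.39 mg/kg, or the unmasked positive control at a dose of 0.03 mg/kg, or vehicle, so that the doses of the agents differed. Tumours were collected at day 4 or day 7, giving 5 libraries in each of 6 groups: mXTX301, unmasked control and vehicle at day 4, and the same at day 7. Strain, sex, age and cell line were the same in all 6 groups. Interleukin-12 acts on natural killer cells and T cells, which then secrete interferon-gamma. Levels are given in CPM, the usual unit of counts scaled by library size (here with TMM factors), in replicate order, and log2 fold changes are drug over vehicle with their standard errors. A gene was called when its edgeR quasi-likelihood p, adjusted over all 15482 genes with the Benjamini-Hochberg method, was under 0.05. The labels do not say whether replicate libraries came from separate mice, so p-values measure the spread between libraries.

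The 250 bases before the transcription start of 4 members are shown because sterol-responsive promoters are known for SREBP sites flanked by NF-Y boxes. They come from RefSeq on GRCm38.p6, whose table held 26 of the 33 members. Capitals mark the sterol regulatory element TCACNCCAC and the NF-Y box CCAAT, searched on both strands, where ATTGG is the box read on the other strand.
Hmgcs1, chr13:119690101-119690350, plus strand: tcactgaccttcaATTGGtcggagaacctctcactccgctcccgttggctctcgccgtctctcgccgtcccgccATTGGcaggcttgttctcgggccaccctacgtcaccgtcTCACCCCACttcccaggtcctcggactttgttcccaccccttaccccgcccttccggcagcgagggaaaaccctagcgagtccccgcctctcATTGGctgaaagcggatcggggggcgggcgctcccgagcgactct
Mvd, chr8:122443423-122443672, minus strand: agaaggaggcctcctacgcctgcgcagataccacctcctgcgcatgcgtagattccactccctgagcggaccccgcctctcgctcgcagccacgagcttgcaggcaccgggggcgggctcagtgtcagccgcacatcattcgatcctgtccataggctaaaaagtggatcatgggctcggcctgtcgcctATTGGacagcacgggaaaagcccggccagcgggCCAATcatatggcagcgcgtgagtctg
Pmvk, chr3:89454291-89454540, plus strand: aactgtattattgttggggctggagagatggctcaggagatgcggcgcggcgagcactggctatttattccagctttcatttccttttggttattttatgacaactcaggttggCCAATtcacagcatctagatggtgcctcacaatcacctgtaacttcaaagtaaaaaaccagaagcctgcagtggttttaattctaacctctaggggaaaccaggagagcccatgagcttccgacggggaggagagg
Fasn, chr11:120824548-120824797, minus strand: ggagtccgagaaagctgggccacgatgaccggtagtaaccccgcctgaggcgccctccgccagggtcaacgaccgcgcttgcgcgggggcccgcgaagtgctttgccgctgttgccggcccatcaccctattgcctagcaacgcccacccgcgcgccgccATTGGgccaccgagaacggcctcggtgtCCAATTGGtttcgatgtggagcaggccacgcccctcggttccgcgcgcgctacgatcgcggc
The Hmgcs1 window held TCACNCCAC at bases -137 to -129 from the start and 3 NF-Y boxes, and it was the 1 window of 26 (3.85%) with that sterol element, against 1.03% of 27025 promoters. CCAAT lay in 19 of the 26 windows (73.1%), against 34.5% of all promoters of the same length. Fasn held 3 boxes, 2 of which overlapped on opposite strands, Mvd held 2 and Pmvk held 1. The 4 windows shown all held a box, unlike those of Acaca, Acat2, Acly, Dhcr7, Elovl6, Fads2 and Me1. Each window precedes the most upstream start listed for its gene. That of Acaca lay inside its annotated gene, and those of Idi1 and Tm7sf2 lay wholly in annotated exons. A match is a description of these letters and was not tied to binding of any factor.

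Libraries held 48301869 to 85195518 counts. Markers of epithelial tumour cells, which carcinomas commonly express, were close to 0 in every group: 5 of 9 passed the low-count filter and the summed level of the 9 ranged over 1.94 to 17.2 CPM. Markers of skin epidermis lay over 2 log2 units above the median of the 30 libraries in 12 of them, namely 1 mXTX301, 2 unmasked control and 1 vehicle library at day 4, and 2, 3 and 3 libraries of the same groups at day 7. A margin of 5 log2 units, chosen after seeing the levels, left 8 such libraries. Counts of members called are given with and without them, and their source was not tested. In bulk tissue, fewer cells of a type and less RNA per cell cannot be told apart.

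At day 4, sterol genes made up most of the members that fell, and the fold changes were small. With mXTX301, 20 of the 33 members fell and 1, Tm7sf2, rose, where 16% of all tested genes fell and 16.2% rose (32.2% in either direction). The members' median log2 fold change was -0.33, against 0.01 over all genes. The unmasked control lowered 11 members and raised 0, where 10.8% of all tested genes fell and 11.6% rose (22.4% in either direction), and the median was -0.29 against -0.01. All 33 members had a negative value with the unmasked control, 18 of them at an unadjusted p under 0.05, where 35.5% of all tested genes had such a p. DESeq2 likewise called 0 members higher, where it called 12.9% of all genes higher. The 20 genes that fell with mXTX301 were 6 of 8 in the mevalonate arm, 8 of 11 from squalene to cholesterol, all 4 regulators and carriers, and 2 of 10 fatty acid genes, Fads1 and Fads2. Separation of the libraries was rare: all 5 mXTX301 libraries lay below all 5 vehicle libraries for 2 members, Pmvk and Idi1, against 9.33% of all genes, and above them for 0 members, against 9.29%. With the unmasked control this held for 0 members below vehicle, against 6.54% of all genes, and 0 above it, against 7.3%. Both comparisons share the 5 vehicle libraries of day 4. The mXTX301 count was 11 without vehicle replicate 2, 11 without vehicle replicate 5 and 12 without mXTX301 replicate 5, where 15.1%, 12.7% and 12.7% of all genes fell and the members' medians were -0.29, -0.24 and -0.28. It was 10 without the skin-rich libraries by either margin, where 11.2% of all genes fell (11.5% at the stricter margin) and the members' median was -0.36 (-0.34). The unmasked control count was 6, 17 and 7 without vehicle replicates 2, 3 and 5, and 5 without unmasked control replicate 2, where 8.85%, 9.08%, 11.5% and 8.4% of all genes fell and the members' medians were -0.22, -0.36, -0.20 and -0.24. It was 1 without the skin-rich libraries, where 4.02% of all genes fell and the members' median was -0.32, and 5 at the stricter margin, where 7.71% fell and the median was -0.28.

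By day 7 the fall against vehicle covered nearly the whole pathway. Averaged over the 33 members, log2 CPM was 6.43 at day 4 and 6.41 at day 7 with mXTX301. It was 6.45 and 6.30 with the unmasked control, and 6.70 and 6.85 in vehicle. The gap between the mXTX301 and vehicle means was wider at day 7, beside a higher vehicle mean and a nearly unchanged mXTX301 mean. The vehicle SDs over libraries were 0.19 and 0.16. Between the days edgeR called 0 members in vehicle, where it called 0.0388% of all genes, and 0 for the mXTX301 effect, where it called 4.99%. With mXTX301, 28 members fell and Tm7sf2 rose, where 22.7% of all tested genes fell and 25.7% rose (48.4% in either direction), and the members' median log2 fold change was -0.50, against 0.02 over all genes. With the unmasked control, 29 fell and Tm7sf2 rose, where 21.8% of all tested genes fell and 23.2% rose (45% in either direction), and the median was -0.63 against 0.01. All 5 drug libraries lay below all 5 vehicle libraries for 20 members with mXTX301, against 14.2% of all genes, and for 26 members with the unmasked control, against 12.8%. They lay above vehicle for 1 member, Tm7sf2, with each drug, against 16.5% of all genes with mXTX301 and 12.5% with the unmasked control. The members that did not pass the test were Ggps1, Fdft1, Acss2 and Scd1 with mXTX301, and Ggps1, Ebp and Acss2 with the unmasked control. Both comparisons share the vehicle libraries of day 7. Without the skin-rich libraries, 26 members fell with mXTX301 and 19 with the unmasked control, which left 2 libraries in the unmasked control and vehicle groups. In these fits 15.2% and 5.75% of all genes fell, and the members' medians were -0.67 and -0.60. The unmasked control calls lost there included those of Mvd, Fdps, Fdft1, Msmo1, Srebf1 and Insig1 (edgeR adjusted p between 0.067 and 0.237). At the stricter margin the counts were 28 and 27, where 20.8% and 18.1% of all genes fell.

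**Figure D1:**
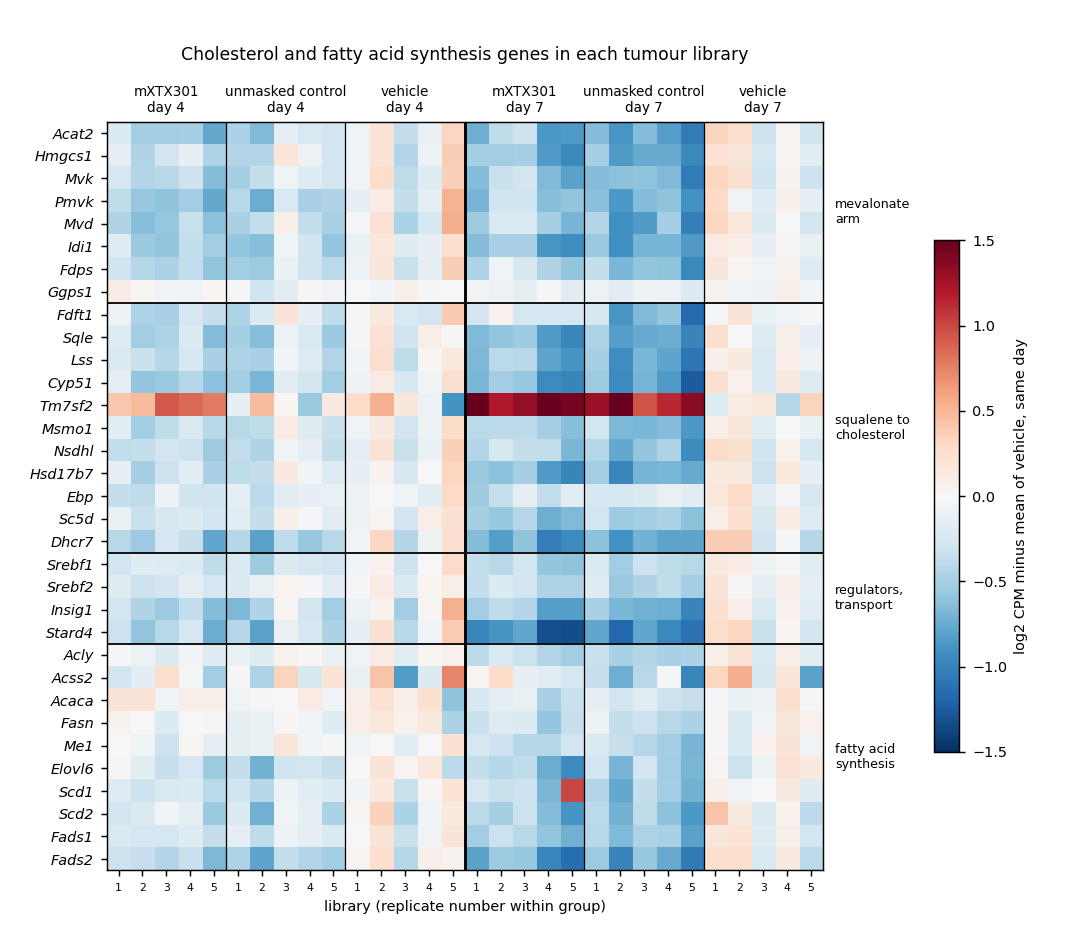
Each cell is the log2 CPM of a member (rows, grouped by role) in a library (columns, 5 per group) minus the mean of the vehicle libraries of the same day, with colours clipped at the ends of the scale. Most rows are blue in the drug groups at day 7, Tm7sf2 is red there, and Scd1 is red in a single mXTX301 library.

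**Figure D2:**
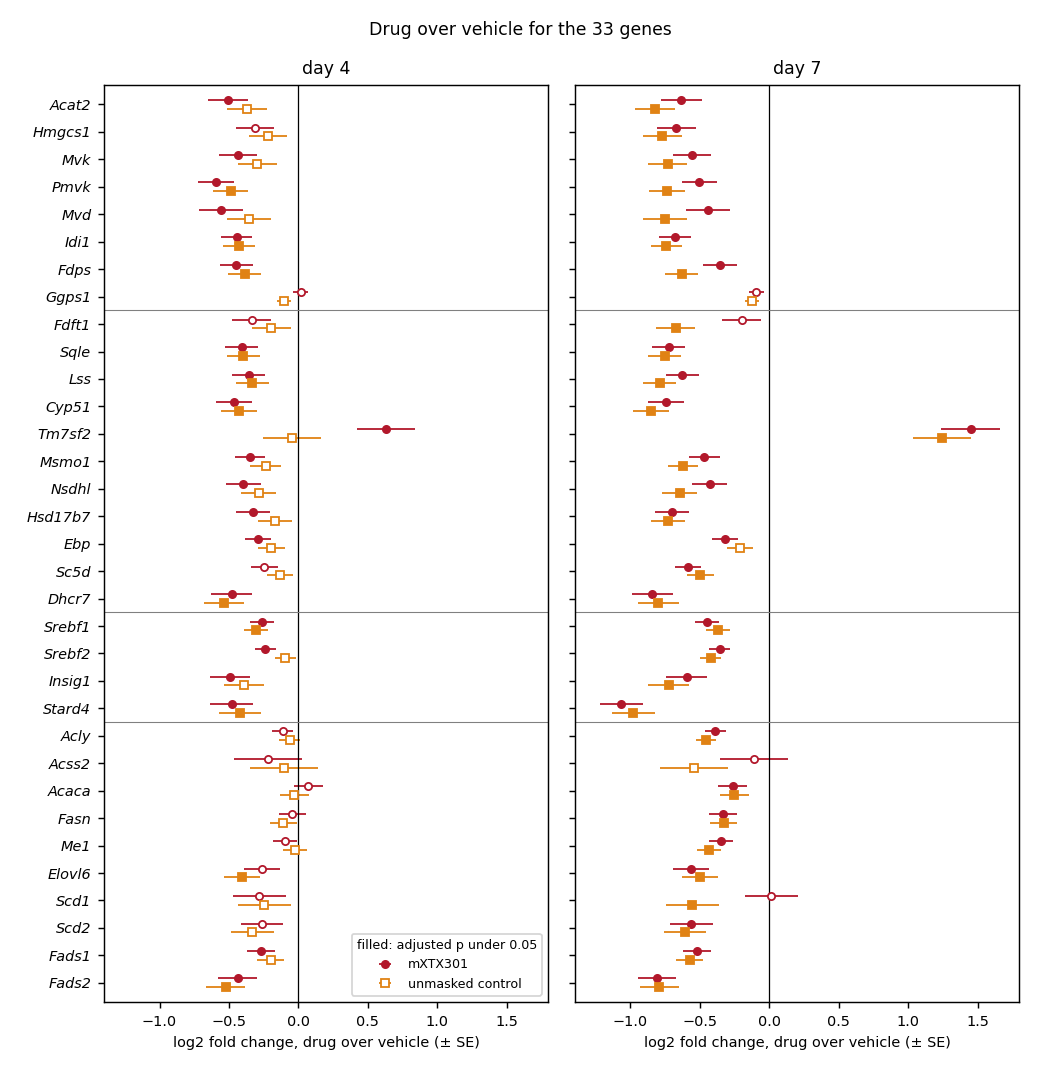
Points are log2 fold changes of drug over vehicle for the 33 members at day 4 (left) and day 7 (right), bars are standard errors, and filled points passed an adjusted p of 0.05. At day 7, 28 members lie left of 0 with filled points for mXTX301 and 29 for the unmasked control, and Tm7sf2 lies to the right for both.

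Members differed widely in abundance. Per kilobase of annotated exon, Scd2 was highest at 153 CPM per kb on average over the 30 libraries, followed by Cyp51 at 84.0 and Acly at 78.8, and Acss2 at 1.74 and Tm7sf2 at 0.87 were lowest. Libraries of a group ranked alike for many members: vehicle replicate 3 of day 4 had the lowest level for 26 of the 33 members and replicate 5 the highest for 20, and unmasked control replicate 3 of day 4 was highest for 28. At day 7, unmasked control replicate 1 was highest for 23 members and replicate 5 lowest for 22, and mXTX301 replicate 5 was lowest for 21. Within groups the median coefficient of variation of the members was between 9.79% and 16.2%.

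In the mevalonate arm, 7 of 8 members fell at day 7 with each drug, and Ggps1, which makes geranylgeranyl diphosphate for protein prenylation, did not pass the test in any of the 4 comparisons with vehicle. Hmgcs1 (chr13:119690379-119708260, plus strand) makes HMG-CoA, the precursor of mevalonate. At day 4, Hmgcs1 measured 267, 217, 244, 272 and 215 CPM in mXTX301 tumours, 218, 219, 337, 279 and 243 CPM in unmasked control tumours, and 286, 341, 218, 280.0 and 383 CPM in vehicle tumours. At day 7, Hmgcs1 measured 253, 250.3, 254, 199.7 and 184 CPM in mXTX301 tumours, 254, 199.6, 214, 212 and 184 CPM in unmasked control tumours, and 419, 407, 299, 369 and 319 CPM in vehicle tumours. Every drug-treated library of day 7 lay below every vehicle library, while the groups overlapped at day 4. Hmgcs1 fell at day 7, with log2 fold changes of -0.67 ± 0.14 (edgeR adjusted p = 0.000297) with mXTX301 and -0.77 ± 0.14 (edgeR adjusted p = 7.34e-05) with the unmasked control. The day 4 values were -0.31 ± 0.14 (edgeR adjusted p = 0.0861) and -0.22 ± 0.14 (edgeR adjusted p = 0.262), neither past the threshold.

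Idi1 (chr13:8885501-8892451, plus strand), the isomerase that balances the isoprenoid building blocks, separated earlier. At day 4, Idi1 stood at 38.1, 29.7, 29.0, 34 and 30.3 CPM in mXTX301 tumours, 29.0, 27.9, 41.5, 35.5 and 29.2 CPM in unmasked control tumours, and 40.2, 48.5, 38.5, 40.0 and 51.9 CPM in vehicle tumours. At day 7, Idi1 stood at 30.7, 34.3, 34.3, 26.3 and 25.2 CPM in mXTX301 tumours, 32.7, 25.5, 29.8, 29.7 and 26.7 CPM in unmasked control tumours, and 52.5, 51.6, 44.2, 48.7 and 44.6 CPM in vehicle tumours. Exons of both Hmgcs1 and Idi1 are overlapped on the opposite strand by annotated genes that have no row in the count table. The mXTX301 libraries of Idi1 were below all vehicle libraries on both days, and the unmasked control libraries were so at day 7, with an overlap at day 4. Idi1 fell in all 4 comparisons, for mXTX301 with log2 fold changes of -0.45 ± 0.11 (edgeR adjusted p = 0.00376) at day 4 and -0.68 ± 0.11 (edgeR adjusted p = 2.41e-05) at day 7, and with the unmasked control at -0.43 ± 0.11 (edgeR adjusted p = 0.00733) and -0.74 ± 0.11 (edgeR adjusted p = 9.66e-06).

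Fdps (chr3:89093588-89101959, minus strand) makes farnesyl diphosphate, the branch point to sterols and prenylated proteins. At day 4, Fdps had 266, 243, 236, 254 and 217 CPM in mXTX301 tumours, 228, 224, 306, 267 and 247 CPM in unmasked control tumours, and 309, 369, 260.3, 298 and 424 CPM in vehicle tumours. At day 7, Fdps had 246, 323, 286, 248 and 225 CPM in mXTX301 tumours, 264, 211, 224, 223 and 172 CPM in unmasked control tumours, and 380.1, 348, 323, 352 and 295 CPM in vehicle tumours. The mXTX301 and vehicle libraries overlapped on both days, with mXTX301 replicate 2 of day 7 above vehicle replicate 5, whereas the unmasked control was fully below vehicle at day 7. Fdps fell in each comparison, for mXTX301 with log2 fold changes of -0.45 ± 0.12 (edgeR adjusted p = 0.00557) at day 4 and -0.36 ± 0.12 (edgeR adjusted p = 0.0159) at day 7, and with the unmasked control at -0.39 ± 0.12 (edgeR adjusted p = 0.0205) and -0.63 ± 0.12 (edgeR adjusted p = 0.000129). Without mXTX301 replicate 5 the day 7 value with mXTX301 did not pass (-0.30, edgeR adjusted p = 0.0536). The day 4 call with the unmasked control was lost without vehicle replicate 2 or 5 or unmasked control replicate 1 or 2. An annotated gene that overlaps 26.7% of the Fdps exon bases on the same strand has no row of its own in the count table.

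Acat2, an acetyl-CoA acetyltransferase, Mvk and Pmvk, the mevalonate and phosphomevalonate kinases, and Mvd, the diphosphomevalonate decarboxylase, had day 7 log2 fold changes of -0.63, -0.56, -0.50 and -0.44 with mXTX301 and of -0.83, -0.73, -0.74 and -0.75 with the unmasked control, all called. The Mvd call with mXTX301 was lost without vehicle replicate 1 or 2 or mXTX301 replicate 5 (edgeR adjusted p between 0.0507 and 0.0746). Ggps1 stayed between -0.12 and 0.02 in the 4 comparisons. With the unmasked control at day 7 it was called lower by DESeq2 (-0.13, DESeq2 adjusted p = 0.0325) and by edgeR under some other scalings.

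**Figure D3:**
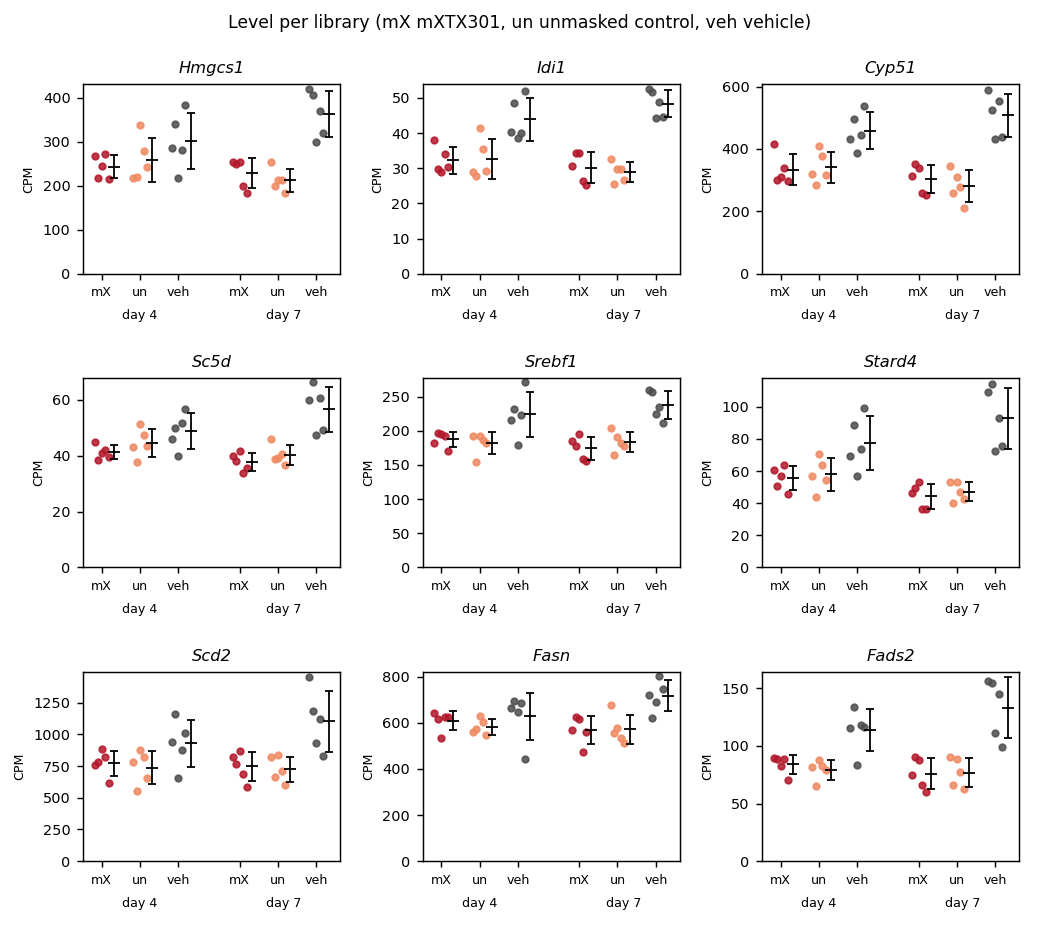
Points are CPM of 9 members in each library, by drug and day, with the group mean and SD (black bars, n = 5). At day 7 the drug-treated libraries of Hmgcs1, Idi1, Cyp51, Sc5d, Srebf1, Stard4 and Fads2 lie below all vehicle libraries, and those of Scd2 and Fasn overlap them.

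From squalene to cholesterol, 9 of 11 members fell at day 7 with each drug and 1, Tm7sf2, rose. Cyp51 (chr5:4081145-4104746, minus strand), the lanosterol demethylase and one of the most abundant members, showed the pattern of the arm. At day 4, Cyp51 reached 417, 302, 311, 338 and 297 CPM in mXTX301 tumours, 321, 284, 409, 376 and 317 CPM in unmasked control tumours, and 433, 495, 386, 443 and 538 CPM in vehicle tumours. At day 7, Cyp51 reached 313, 353, 339, 259 and 253 CPM in mXTX301 tumours, 345, 259, 310.2, 279 and 211 CPM in unmasked control tumours, and 589, 525, 431, 553 and 439 CPM in vehicle tumours. No drug-treated library of day 7 reached the lowest vehicle library, and the groups overlapped at day 4. Cyp51 fell with mXTX301, with log2 fold changes of -0.46 ± 0.13 (edgeR adjusted p = 0.00805) at day 4 and -0.74 ± 0.13 (edgeR adjusted p = 5.02e-05) at day 7, and with the unmasked control at -0.43 ± 0.13 (edgeR adjusted p = 0.0187) and -0.85 ± 0.13 (edgeR adjusted p = 1.1e-05). Its exons overlap those of Akap9 on the opposite strand over 166 bases, and Akap9 rose, with log2 fold changes of 0.61 and 0.51 with mXTX301 and 0.44 and 0.49 with the unmasked control. The day 4 call of Cyp51 with the unmasked control was lost without vehicle replicate 5 or unmasked control replicate 2.

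Msmo1 (chr8:64718139-64733792, minus strand), the sterol C4-methyl oxidase, showed a smaller fold change. At day 4, Msmo1 gave 178, 139.9, 154, 172 and 149.8 CPM in mXTX301 tumours, 151, 153, 219, 177 and 159 CPM in unmasked control tumours, and 192, 220.1, 165, 190.3 and 243 CPM in vehicle tumours. At day 7, Msmo1 gave 166, 168, 167, 155 and 141 CPM in mXTX301 tumours, 182, 138, 136, 139.9 and 121 CPM in unmasked control tumours, and 233, 247, 196, 221 and 205 CPM in vehicle tumours. At day 7 both drug groups lay below every vehicle library, and at day 4 both overlapped vehicle. Msmo1 fell with mXTX301, with log2 fold changes of -0.35 ± 0.11 (edgeR adjusted p = 0.0163) at day 4 and -0.47 ± 0.11 (edgeR adjusted p = 0.000998) at day 7, and with the unmasked control at -0.62 ± 0.11 (edgeR adjusted p = 5.8e-05) at day 7. The unmasked control value at day 4 was -0.24 ± 0.11 (edgeR adjusted p = 0.123). Its mXTX301 call at day 4 was lost without vehicle replicate 5 or mXTX301 replicate 2.

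Sc5d (chr9:42251595-42264256, minus strand), the lathosterol oxidase near the end of the route, was called at day 7. At day 4, Sc5d showed 45.1, 38.6, 41.1, 41.9 and 39.7 CPM in mXTX301 tumours, 43.1, 37.9, 51.2, 47.5 and 43.5 CPM in unmasked control tumours, and 45.9, 50.1, 39.8, 51.8 and 56.7 CPM in vehicle tumours. At day 7, Sc5d showed 39.8, 38.0, 41.8, 33.9 and 35.5 CPM in mXTX301 tumours, 45.9, 38.8, 39.1, 40.6 and 36.6 CPM in unmasked control tumours, and 59.9, 66.3, 47.5, 60.6 and 49.2 CPM in vehicle tumours. The day 7 groups were apart and the day 4 groups overlapped. Sc5d fell at day 7, with log2 fold changes of -0.58 ± 0.10 (edgeR adjusted p = 1.89e-05) with mXTX301 and -0.50 ± 0.10 (edgeR adjusted p = 0.00015) with the unmasked control. At day 4 its values were -0.24 ± 0.10 (edgeR adjusted p = 0.0503) and -0.13 ± 0.10 (edgeR adjusted p = 0.338), neither called by edgeR. DESeq2 called the mXTX301 value (-0.25, DESeq2 adjusted p = 0.0393).

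Among the rest of this arm, Sqle, the squalene epoxidase, Lss, the lanosterol synthase, and Dhcr7, the last enzyme of one branch to cholesterol, fell in all 4 comparisons. Their log2 fold changes were -0.41, -0.36 and -0.48 at day 4 and -0.72, -0.63 and -0.84 at day 7 with mXTX301. With the unmasked control they were -0.40, -0.33 and -0.54 at day 4 and -0.75, -0.79 and -0.80 at day 7. At day 4, leaving out 1 library ended the Lss call in 4 of 10 fits with mXTX301 and 7 of 10 with the unmasked control, and the Sqle call in 2 of 10 with the unmasked control. Nsdhl and Hsd17b7, which act with Msmo1 in C4 demethylation, fell at day 7, with log2 fold changes of -0.43 and -0.70 with mXTX301 and at -0.65 and -0.73 with the unmasked control. Ebp, the sterol isomerase, fell with mXTX301 (-0.29 at day 4 and -0.32 at day 7), and its values with the unmasked control, -0.19 and -0.21, did not pass. The day 4 Ebp call with mXTX301 was lost without vehicle replicate 5 or mXTX301 replicate 2.

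Tm7sf2 (chr19:6062821-6068373, minus strand) was the 1 member that rose. It encodes a sterol C14-reductase, an activity that the nuclear envelope protein Lbr also has. At day 4, Tm7sf2 lay at 3.63, 3.83, 5.22, 4.98 and 4.69 CPM in mXTX301 tumours, 2.51, 3.82, 2.79, 1.85 and 3.01 CPM in unmasked control tumours, and 3.32, 3.99, 3.08, 2.58 and 1.46 CPM in vehicle tumours. At day 7, Tm7sf2 lay at 6.95, 4.81, 5.21, 6.16 and 5.63 CPM in mXTX301 tumours, 5.06, 5.98, 4.00, 4.56 and 5.34 CPM in unmasked control tumours, and 1.81, 2.24, 2.32, 1.53 and 2.62 CPM in vehicle tumours. Every drug-treated library of day 7 exceeded every vehicle library, and at day 4 mXTX301 and vehicle overlapped. Tm7sf2 rose with mXTX301 by 0.63 ± 0.21 (edgeR adjusted p = 0.0218) at day 4 and 1.45 ± 0.21 (edgeR adjusted p = 4.77e-06) at day 7, and with the unmasked control by 1.24 ± 0.21 (edgeR adjusted p = 3.55e-05) at day 7, against -0.05 ± 0.21 (edgeR adjusted p = 0.895) at day 4. The fold over vehicle at day 7 was 2.73 with mXTX301 and 2.37 with the unmasked control. For mXTX301, the call at day 4 was lost without vehicle replicate 5 (0.46, edgeR adjusted p = 0.0693) and without mXTX301 replicate 3 (0.57, edgeR adjusted p = 0.0567). Its exons share 532 bases (12.1%) with Vps51 on the same strand. Vps51 averaged 61.7 CPM over the 30 libraries, against 3.83 CPM for Tm7sf2. The log2 fold changes of Vps51 were 0.12 and 0.29 with mXTX301 and 0.21 and 0.17 with the unmasked control (day 4 then day 7). Those of mXTX301 at day 7 (edgeR adjusted p = 0.00202) and of the unmasked control at day 4 (edgeR adjusted p = 0.0391) were called. Reads in the shared bases cannot be assigned to either gene here. Lbr fell, with log2 fold changes of -0.56 with mXTX301 and -0.50 with the unmasked control at day 7.

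Fdft1 (chr14:63145150-63179578, minus strand), the squalene synthase, was singled out after its values were seen, because the drugs gave it different calls at day 7. At day 7, Fdft1 measured 86.1, 110.1, 87.9, 87.8 and 88.4 CPM in mXTX301 tumours, 89.3, 57.5, 66.3, 70.6 and 47.1 CPM in unmasked control tumours, and 103, 120.1, 98.3, 102 and 104 CPM in vehicle tumours. The mXTX301 libraries overlapped vehicle, and the unmasked control libraries were all below it. Fdft1 fell with the unmasked control, with a log2 fold change of -0.67 ± 0.14 (edgeR adjusted p = 0.000385), and its value with mXTX301 was -0.20 ± 0.14 (edgeR adjusted p = 0.254). The call with the unmasked control was lost without the skin-rich libraries (-0.36, edgeR adjusted p = 0.237). The difference between the drugs, 0.48 (95% interval 0.19 to 0.77), did not pass the adjusted threshold (edgeR adjusted p = 0.67). The exons of Fdft1 overlap those of Ctsb, a lysosomal protease gene on the opposite strand, over 774 bases (18.3%). Ctsb averaged 1186 CPM and rose by 1.54 with mXTX301 and 1.5 with the unmasked control at day 7. Strand use in counting is not given in the sources used here, so reads in the overlap cannot be assigned to either gene.

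**Figure D4:**
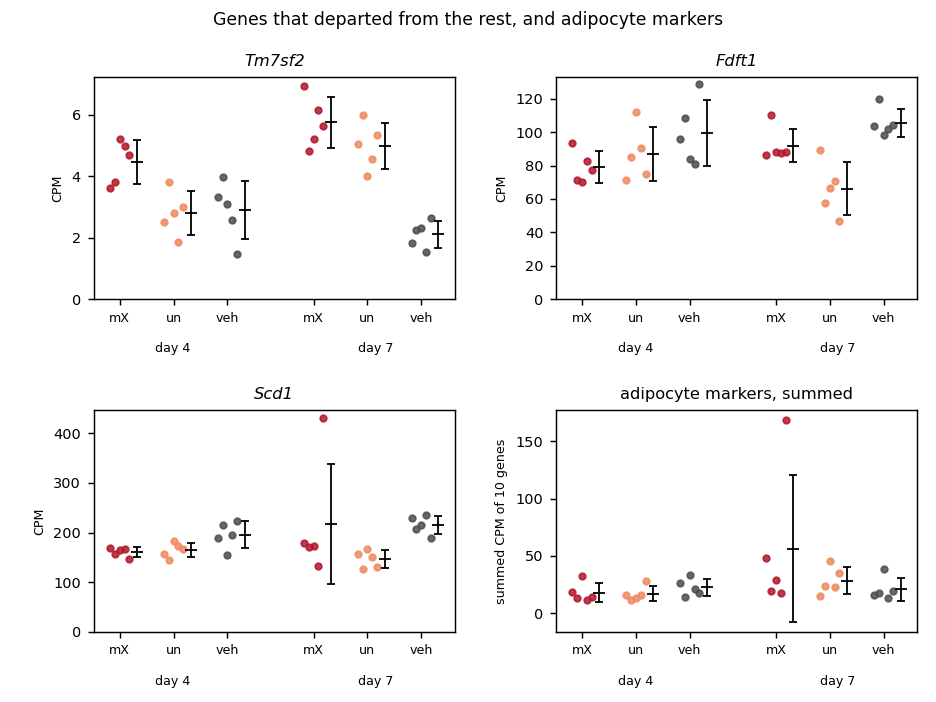
Points are CPM of Tm7sf2, Fdft1 and Scd1 and the summed CPM of 10 adipocyte marker genes in each library, with the group mean and SD (black bars, n = 5). Tm7sf2 is higher in the drug groups at day 7, and mXTX301 replicate 5 of day 7 is the highest library for Scd1 (430.2 CPM) and for the adipocyte markers (169 CPM).

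The 4 regulators and carriers fell with both drugs at day 7. Srebf1 (chr11:60199089-60222581, minus strand) encodes the SREBP factor tied most closely to fatty acid genes. At day 4, Srebf1 counted 183, 197, 195, 192 and 171 CPM in mXTX301 tumours, 192, 154, 193, 187 and 182 CPM in unmasked control tumours, and 216, 232, 179, 223 and 271 CPM in vehicle tumours. At day 7, Srebf1 counted 185, 178, 195, 159 and 155 CPM in mXTX301 tumours, 204, 165, 192, 182 and 177 CPM in unmasked control tumours, and 259.5, 257, 225, 235 and 212 CPM in vehicle tumours. Groups were separate at day 7 and overlapped at day 4. Srebf1 fell with mXTX301, with log2 fold changes of -0.26 ± 0.09 (edgeR adjusted p = 0.0234) at day 4 and -0.45 ± 0.09 (edgeR adjusted p = 0.000154) at day 7, and with the unmasked control at -0.30 ± 0.09 (edgeR adjusted p = 0.0123) and -0.37 ± 0.09 (edgeR adjusted p = 0.00116). Its mXTX301 call at day 4 was lost without vehicle replicate 2 or 5 or mXTX301 replicate 5. The counts are per gene and do not tell its isoforms apart.

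Srebf2 (chr15:82147181-82205379, plus strand) encodes the factor tied to the sterol genes. At day 4, Srebf2 amounted to 334, 306, 310.4, 346 and 315 CPM in mXTX301 tumours, 328, 350.2, 389.9, 373 and 339 CPM in unmasked control tumours, and 371, 411, 328, 388 and 404 CPM in vehicle tumours. At day 7, Srebf2 amounted to 327, 365, 349, 306 and 307 CPM in mXTX301 tumours, 368, 285, 308, 323 and 296 CPM in unmasked control tumours, and 482, 425, 387, 443 and 379 CPM in vehicle tumours. All drug-treated libraries of day 7 were below vehicle, with overlap at day 4. Srebf2 fell with mXTX301, with log2 fold changes of -0.24 ± 0.08 (edgeR adjusted p = 0.0173) at day 4 and -0.36 ± 0.08 (edgeR adjusted p = 0.000398) at day 7. It also fell with the unmasked control, with a log2 fold change of -0.42 ± 0.08 (edgeR adjusted p = 7.15e-05) at day 7, and the day 4 value was -0.10 ± 0.08 (edgeR adjusted p = 0.382). For mXTX301, the call at day 4 was lost without vehicle replicate 2.

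Insig1 (chr5:28071363-28078662, plus strand) encodes an endoplasmic reticulum anchor that retains SREBP and is itself an SREBP target. At day 4, Insig1 was counted at 87.5, 78, 73.0, 82.4 and 67.9 CPM in mXTX301 tumours, 66.9, 78.1, 109.6, 88.2 and 74.2 CPM in unmasked control tumours, and 100.3, 110.2, 74.2, 109 and 154 CPM in vehicle tumours. At day 7, Insig1 was counted at 76.7, 84.3, 80.9, 62.1 and 61.7 CPM in mXTX301 tumours, 78.3, 68.2, 66.5, 65.9 and 55.2 CPM in unmasked control tumours, and 128, 118, 93.8, 114 and 97.8 CPM in vehicle tumours. Drug-treated and vehicle libraries were apart at day 7 and overlapped at day 4. Insig1 fell with mXTX301, with log2 fold changes of -0.49 ± 0.15 (edgeR adjusted p = 0.0114) at day 4 and -0.59 ± 0.15 (edgeR adjusted p = 0.00159) at day 7. It fell with the unmasked control, with a log2 fold change of -0.73 ± 0.15 (edgeR adjusted p = 0.000263) at day 7, and the day 4 value was -0.39 ± 0.15 (edgeR adjusted p = 0.0531). Its mXTX301 call at day 4 was lost without vehicle replicate 5. The day 4 value with the unmasked control was called by DESeq2 (-0.40, DESeq2 adjusted p = 0.0337).

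Stard4 (chr18:33199355-33213862, minus strand), a cytosolic sterol carrier and SREBP target, had the most negative fold change of the 33 members at day 7 with each drug. At day 4, Stard4 registered 60.9, 50.7, 57.0, 63.8 and 45.5 CPM in mXTX301 tumours, 56.8, 43.7, 70.8, 64.1 and 54.7 CPM in unmasked control tumours, and 69.1, 88.9, 57.0, 73.7 and 99.4 CPM in vehicle tumours. At day 7, Stard4 registered 46.1, 49.4, 53.3, 36.5 and 36.4 CPM in mXTX301 tumours, 53.1, 40.3, 53.0, 46.8 and 42.5 CPM in unmasked control tumours, and 109, 114, 72.4, 93.1 and 75.4 CPM in vehicle tumours. The highest drug-treated library of day 7 was under the lowest vehicle library, and the groups overlapped at day 4. Mean levels at day 7 were 44.3 ± 7.65 CPM with mXTX301, 47.1 ± 5.90 CPM with the unmasked control and 92.9 ± 19.0 CPM with vehicle (SD, n = 5 each). Stard4 fell with mXTX301, with log2 fold changes of -0.48 ± 0.15 (edgeR adjusted p = 0.018) at day 4 and -1.07 ± 0.16 (edgeR adjusted p = 4.82e-06) at day 7. It also fell with the unmasked control, with log2 fold changes of -0.42 ± 0.15 (edgeR adjusted p = 0.0489) and -0.98 ± 0.15 (edgeR adjusted p = 1.61e-05). For mXTX301, the call at day 4 was lost without vehicle replicate 2 or 5 or mXTX301 replicate 5, and that with the unmasked control in 7 of the 10 fits that left out 1 library.

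Of the 10 genes of fatty acid synthesis and desaturation, 2 fell at day 4 with each drug, and 8 fell at day 7 with mXTX301 and 9 with the unmasked control. Acly (chr11:100476353-100528000, minus strand) makes cytosolic acetyl-CoA from citrate. At day 4, Acly came to 418, 400.4, 368, 412 and 371 CPM in mXTX301 tumours, 398, 375, 440.3, 432 and 397 CPM in unmasked control tumours, and 408, 463, 378, 435 and 446 CPM in vehicle tumours. At day 7, Acly came to 384, 430.2, 402, 371 and 352 CPM in mXTX301 tumours, 399.8, 359.9, 372, 359 and 362 CPM in unmasked control tumours, and 534, 585, 429, 541 and 449 CPM in vehicle tumours. At day 7 the unmasked control was below all vehicle libraries, and mXTX301 overlapped through replicate 2. Acly fell at day 7, with log2 fold changes of -0.39 ± 0.07 (edgeR adjusted p = 0.000128) with mXTX301 and -0.46 ± 0.07 (edgeR adjusted p = 2.38e-05) with the unmasked control, against day 4 values of -0.11 ± 0.07 (edgeR adjusted p = 0.264) and -0.06 ± 0.07 (edgeR adjusted p = 0.581).

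Fasn (chr11:120805846-120824547, minus strand), the fatty acid synthase, was close to vehicle at day 4. At day 4, Fasn read 644, 618, 536, 624 and 625 CPM in mXTX301 tumours, 558, 574, 629.6, 604 and 547 CPM in unmasked control tumours, and 664, 694, 649, 687 and 445 CPM in vehicle tumours. At day 7, Fasn read 569, 625, 618, 475 and 562 CPM in mXTX301 tumours, 676, 558, 577, 535 and 514 CPM in unmasked control tumours, and 723, 622, 691, 804 and 748 CPM in vehicle tumours. Drug and vehicle libraries overlapped on both days. Fasn fell at day 7, with log2 fold changes of -0.33 ± 0.10 (edgeR adjusted p = 0.0066) with mXTX301 and -0.33 ± 0.10 (edgeR adjusted p = 0.00809) with the unmasked control. Its day 4 values were -0.04 ± 0.10 (edgeR adjusted p = 0.782) and -0.11 ± 0.10 (edgeR adjusted p = 0.453). The unmasked control call of day 7 was lost without the skin-rich libraries (-0.34, edgeR adjusted p = 0.199).

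Me1 (chr9:86581371-86695953, minus strand), the cytosolic malic enzyme that supplies NADPH, was called at day 7. At day 4, Me1 showed 90.8, 86.3, 72.6, 92.5 and 82.0 CPM in mXTX301 tumours, 82.1, 84.5, 103, 87.7 and 89 CPM in unmasked control tumours, and 86.6, 90.3, 80.6, 90.7 and 106 CPM in vehicle tumours. At day 7, Me1 showed 80.1, 77.7, 71.6, 71.3 and 78.8 CPM in mXTX301 tumours, 82.9, 75.4, 71.2, 67.6 and 59.4 CPM in unmasked control tumours, and 97.6, 81.9, 100.4, 110.0 and 92.8 CPM in vehicle tumours. The mXTX301 libraries of day 7 were just below the lowest vehicle library, and 1 unmasked control library was above it. Me1 fell at day 7, with log2 fold changes of -0.35 ± 0.09 (edgeR adjusted p = 0.00174) with mXTX301 and -0.44 ± 0.09 (edgeR adjusted p = 0.000207) with the unmasked control, against -0.10 ± 0.09 (edgeR adjusted p = 0.423) and -0.03 ± 0.09 (edgeR adjusted p = 0.859) at day 4.

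Scd2 (chr19:44293674-44306864, plus strand), a stearoyl-CoA desaturase, had the highest level per kilobase of the 33 members. At day 4, Scd2 contributed 756, 784, 884, 823 and 619 CPM in mXTX301 tumours, 785, 556, 873, 821 and 654 CPM in unmasked control tumours, and 938, 1163, 655, 875 and 1011 CPM in vehicle tumours. At day 7, Scd2 contributed 825, 768, 868, 689.7 and 587 CPM in mXTX301 tumours, 818, 664, 833, 707 and 597 CPM in unmasked control tumours, and 1449.9, 1185, 933, 1120.3 and 826 CPM in vehicle tumours. Groups overlapped on both days. Scd2 fell at day 7, with log2 fold changes of -0.56 ± 0.15 (edgeR adjusted p = 0.00377) with mXTX301 and -0.61 ± 0.15 (edgeR adjusted p = 0.00218) with the unmasked control, and its day 4 values, -0.26 ± 0.15 (edgeR adjusted p = 0.197) and -0.33 ± 0.15 (edgeR adjusted p = 0.119), did not pass. Scd1 and Scd2 are close paralogs, so reads they share leave their separate levels uncertain.

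Scd1, described because of 1 library and chosen after its values were seen, gave the exception among the desaturases. At day 7, Scd1 measured 179, 170.2, 173, 133 and 430.2 CPM in mXTX301 tumours, 158, 126, 167, 151 and 131 CPM in unmasked control tumours, and 228, 206, 216, 236 and 189 CPM in vehicle tumours. The fifth mXTX301 library lay above all vehicle libraries and the other 4 below them. The value with mXTX301 was 0.01 ± 0.19 (edgeR adjusted p = 0.959), and without mXTX301 replicate 5 it was -0.39, edgeR adjusted p = 0.00312. Scd1 fell with the unmasked control, with a log2 fold change of -0.55 ± 0.19 (edgeR adjusted p = 0.0204), a call lost without unmasked control replicate 2 (-0.50, edgeR adjusted p = 0.0533) and without the skin-rich libraries. The same mXTX301 library held a summed 169 CPM of 10 adipocyte markers, against 17.4 to 48.6 CPM in the other mXTX301 libraries of that day, 14.9 to 45.5 CPM in the unmasked control and 13.2 to 38.1 CPM in vehicle. Of the 9 adipocyte markers tested, 2 rose with mXTX301 at day 7 and 0 with the unmasked control. Of all tested genes 25.7% and 23.2% rose, so the share of the markers was no higher. With the unmasked control 0 markers also had an unadjusted p under 0.05, where 52.2% of all genes did. With skin and adipocyte levels as covariates, the day 7 log2 difference of Scd1 between mXTX301 and the unmasked control was 0.34, against 0.57 in the reported fit. Whether adipose tissue has a part in the Scd1 value was not tested.

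Fads2 (chr19:10062765-10101746, minus strand), the delta-6 desaturase of polyunsaturated fatty acids, fell on both days. At day 4, Fads2 yielded 89.8, 88.5, 82.5, 88.8 and 70.2 CPM in mXTX301 tumours, 81.5, 65.1, 87.6, 82.5 and 78.9 CPM in unmasked control tumours, and 116, 134, 83.6, 119 and 116 CPM in vehicle tumours. At day 7, Fads2 yielded 75.0, 90.6, 88.2, 66.2 and 60.0 CPM in mXTX301 tumours, 90.1, 66.1, 88.5, 77.4 and 62.6 CPM in unmasked control tumours, and 156, 155, 111, 145 and 98.7 CPM in vehicle tumours. No drug-treated library of day 7 overlapped vehicle, while at day 4 vehicle replicate 3 lay among the drug-treated ones. Fads2 fell with mXTX301, with log2 fold changes of -0.44 ± 0.14 (edgeR adjusted p = 0.0174) at day 4 and -0.81 ± 0.14 (edgeR adjusted p = 3.86e-05) at day 7, and with the unmasked control at -0.52 ± 0.14 (edgeR adjusted p = 0.00771) and -0.79 ± 0.14 (edgeR adjusted p = 5.63e-05). Its mXTX301 call at day 4 was lost without vehicle replicate 2 or mXTX301 replicate 5. Elovl6, a fatty acid elongase, Fads1, the delta-5 desaturase, and Acaca, the acetyl-CoA carboxylase, fell at day 7, with log2 fold changes of -0.57, -0.52 and -0.26 with mXTX301 and at -0.50, -0.57 and -0.25 with the unmasked control. The Acaca call was lost with either drug under several alternatives, leaving out vehicle replicate 4 among them (edgeR adjusted p = 0.13 with mXTX301 and 0.167 with the unmasked control). Acss2, the acetyl-CoA synthetase, passed in none of the 4 comparisons by edgeR and had a coefficient of variation of up to 40.3%. DESeq2 called it lower with the unmasked control at day 7 (-0.55, DESeq2 adjusted p = 0.0488).

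Whether a drug effect differed between days was tested as its day 7 value minus its day 4 value. For mXTX301, 26 of 33 members had a negative difference with a median of -0.23, against 0.05 over all genes, and edgeR called 0 members in either direction, where 3.04% of all genes were called lower and 1.95% higher (4.99% in all). By unadjusted p under 0.05, 7 members passed, where 24.9% of all genes did, a share no lower than that of the members. DESeq2 called 0 members, where it called 5.65% of all genes lower and 3.88% higher. For the unmasked control, 32 members had a negative difference with a median of -0.36, against 0.02, and 2 members were called lower and 1 higher, where 2.2% of all genes were called lower and 2.95% higher (5.15% in all). The difference was negative for Acly (-0.39, edgeR adjusted p = 0.0336) and Me1 (-0.41, edgeR adjusted p = 0.0472). It was positive for Tm7sf2 (1.29, edgeR adjusted p = 0.0215). None of these genes was called with the unmasked control at day 4, and each difference includes any change of vehicle between the days. The count of lower calls for the unmasked control was 12 without vehicle replicate 5 of day 4, where 11.3% of all genes were called lower, and 9 without unmasked control replicate 1 of day 7, where 6.28% were. It was 0 without the skin-rich libraries, where 0% of all genes were called lower and the members' median was -0.33. In the other fits that left out 1 library it was between 0 and 5, where 0.368% to 4.2% of all genes were called lower. None of these 3 calls was kept under every alternative. In vehicle tumours, day 7 against day 4 gave 0 members called by edgeR, where 0.0194% of all genes were called in each direction (0.0388% in both), with a median of 0.15 against 0.00 over all genes. At an unadjusted p under 0.05 it gave 5 members, where 18.9% of all genes passed, and DESeq2 called 1 member higher, where it called 2% of all genes higher. Both shares are near those of the members. The vehicle libraries of day 7 lay all above those of day 4 for 0 members, against 0.949% of all genes, and all below them for 0 members, against 1.09%.

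No member was called different between mXTX301 and the unmasked control by edgeR or DESeq2 on either day, where edgeR called 0% of all genes. At an unadjusted p under 0.05, 2 members passed at day 4, where 13.5% of all genes did, and 3 at day 7, where 5.8% did, so the members' share was below that of all genes at day 4 and near it at day 7. At day 4 these were Tm7sf2, with a log2 difference of 0.68 (95% interval 0.25 to 1.10), and Ggps1, with 0.12 (0.01 to 0.23). At day 7 these were Scd1 at 0.57 (0.17 to 0.96), Fdft1 at 0.48 (0.19 to 0.77) and Fdps at 0.28 (0.03 to 0.52). The Scd1 difference rested on 1 library: without mXTX301 replicate 5 it was 0.16. Without the skin-rich libraries, the difference was 0.26 for Fdft1 and 0.12 for Fdps. The doses differed between the agents, and a p that misses the threshold does not show that they act alike. All 5 libraries of 1 drug were beyond all 5 of the other for 0 members on either day, against 2.4% of all genes higher and 3.44% lower at day 4 and 0.555% higher and 0.782% lower at day 7.

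The neighbouring lists were also chosen with earlier results of these data known. Their counts stand against 22.7% of all tested genes that fell and 25.7% that rose with mXTX301 at day 7, and 21.8% and 23.2% with the unmasked control. In the SREBP processing list of 8 genes, 4 fell and 0 rose with mXTX301 at day 7, and 3 fell and 1 rose with the unmasked control. At day 4 more of them rose than fell, with 2 rising and 1 falling with mXTX301 and 2 rising and 0 falling with the unmasked control, and medians of 0.08 and 0.09. On that day 16.2% and 11.6% of all genes rose and 16% and 10.8% fell. Scap, the SREBP escort, fell at day 7, with log2 fold changes of -0.43 ± 0.05 (edgeR adjusted p = 4.18e-07) with mXTX301 and -0.30 ± 0.05 (edgeR adjusted p = 4.24e-05) with the unmasked control. Erlin1, which takes part in sterol-regulated degradation, also fell (-0.25 with mXTX301 and -0.16 with the unmasked control). Mbtps2, an SREBP protease gene, gave 0.03 and 0.10 without a call.

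The list of LXR, oxysterol and sterol export genes went the other way, with 11 of 16 rising and 2 falling at day 7 with each drug, a median of 0.88 with mXTX301 and 0.86 with the unmasked control. At day 4, 7 rose with each drug, and 2 fell with mXTX301 and 0 with the unmasked control. The day 4 counts of this list and the next 2 stand against 16.2% of all genes that rose and 16% that fell with mXTX301. With the unmasked control these shares were 11.6% and 10.8%. At day 7, Abca1, a cholesterol exporter, rose by 2.26 ± 0.28 (edgeR adjusted p = 6.47e-07) with mXTX301 and 2.55 ± 0.28 (edgeR adjusted p = 1.83e-07) with the unmasked control. On the same day the LXR genes Nr1h3 and Nr1h2 rose by 1.68 and 0.60 with mXTX301 and by 1.98 and 0.50 with the unmasked control. Nceh1, a cholesteryl ester hydrolase, rose by 0.94 and 1.02. Lpcat3, a phospholipid acyltransferase and LXR target, and Scarb1, a lipoprotein receptor, were the 2 that fell at day 7. In fatty acid oxidation, 9 of 10 listed genes were tested, with 1 rising and 4 falling with mXTX301 at day 7 and 2 rising and 5 falling with the unmasked control, so that the share rising did not exceed that of all genes. At day 4, 1 rose with each drug, and 2 fell with mXTX301 and 1 with the unmasked control, near the shares of all genes. Acadl, a long-chain acyl-CoA dehydrogenase, rose at day 7 by 0.28 with mXTX301 and 0.22 with the unmasked control. Acadm, the medium-chain enzyme, fell at day 7, with log2 fold changes of -0.64 with mXTX301 and -0.50 with the unmasked control. Of 7 genes of triglyceride synthesis and lipid droplets, 3 rose and 0 fell with each drug at day 7. At day 4, 1 rose and 0 fell with each drug, where the share rising was near that of all genes. With mXTX301 at day 7, Lpin2, a phosphatidate phosphatase, rose by 1.16, Plin2, a lipid droplet coat protein, by 1.12 and Dgat1, an acyltransferase, by 0.49. With the unmasked control these genes rose by 1.20, 1.21 and 0.47 on that day.

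**Figure D5:**
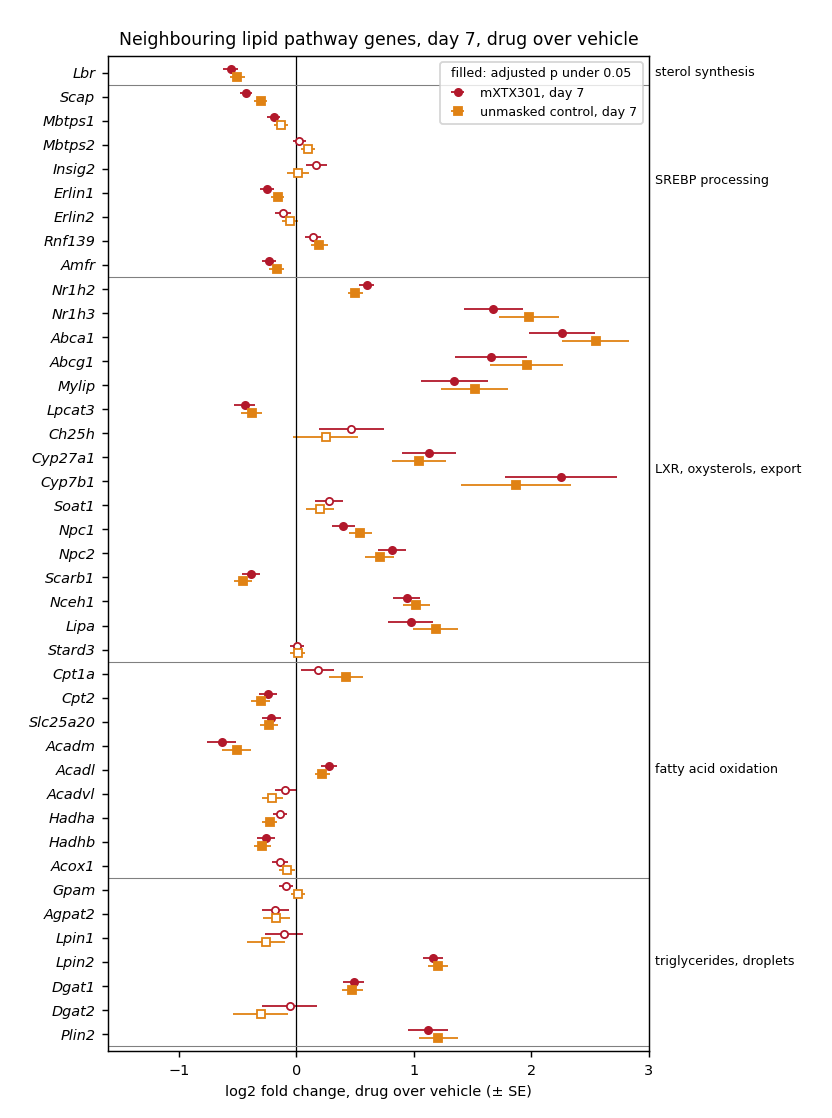
Points are log2 fold changes at day 7 of drug over vehicle for genes of neighbouring lipid pathways, bars are standard errors, and filled points passed an adjusted p of 0.05. Scap and Lbr lie left of 0, and Abca1, Nr1h3 and Plin2 lie to the right for both drugs.

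Cell type markers moved with treatment beside these genes. Their counts stand against 16.2% of all tested genes that rose and 16% that fell with mXTX301 at day 4. With the unmasked control at day 4 these shares were 11.6% and 10.8%. At day 7 they were 25.7% and 22.7% with mXTX301, and 23.2% and 21.8% with the unmasked control. At day 4, 8 of 8 T cell markers rose with mXTX301 and 7 with the unmasked control, with summed levels of 17.2 to 96.6 CPM, 17.2 to 47 CPM and 5.61 to 10.2 CPM in mXTX301, unmasked control and vehicle tumours. Macrophage markers rose at day 4 for 6 of 10 genes with mXTX301 and 2 with the unmasked control, with summed levels of 643 to 1644 CPM, 691 to 1206 CPM and 522 to 729 CPM in the same order. Proliferation genes fell at day 4 for 7 of 10 with mXTX301 and 4 with the unmasked control, with summed levels of 2025 to 2372 CPM, 1907 to 2257 CPM and 2069 to 2344 CPM. At day 7 all 8 T cell markers rose with each drug, and their summed level ranged over 46.9 to 127 CPM with mXTX301, 50.8 to 155 CPM with the unmasked control and 3.70 to 7.84 CPM with vehicle. Of 10 macrophage markers, 10 rose with mXTX301 and 9 with the unmasked control, with summed levels of 1404 to 2567 CPM, 894 to 2575 CPM and 366 to 987 CPM in mXTX301, unmasked control and vehicle tumours. Of 10 proliferation genes, 10 fell with mXTX301 and 9 with the unmasked control, with summed levels of 1606 to 1881 CPM, 1642 to 2106 CPM and 2281 to 2531 CPM in the same order. At day 7, fibroblast markers rose for 3 of 7 genes with mXTX301 and 0 of 7 with the unmasked control, where 1 had an unadjusted p under 0.05, against 52.2% of all genes. The part of these shifts in the fall of the synthesis genes was not tested.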

How the data were processed

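Whole-tumour polyA RNA was sequenced in 30 libraries, 5 in each of 6 groups. The mm10 build, STAR 2.7.10a, HTSeq 0.11.1, edgeR 3.34.0, R 4.1.0, cutadapt and FastQC 0.11.9 are credited to the submitters' processing notes. The authors deposited raw counts per gene, used here, and a table of log2 CPM values for 14877 genes. The deposited log2 values of all 33 genes were recomputed from the counts to within 0.000196 and were not used further. Strandedness and annotation are not given in the sources used here. Of 24557 entries, 5 with repeated symbols (0.0204% of entries) were dropped. Counts were filtered with filterByExpr (15482 genes kept), scaled with TMM and tested with edgeR 4.0.16 (glmQLFit, robust, glmQLFTest) in R 4.3.3, in 1 fit of all 6 groups without covariates. The p-values were adjusted over all tested genes with the Benjamini-Hochberg method, and log2 CPM used a prior count of 2. Alternatives were DESeq2 1.42.0, other scalings, no filter, fits on the compared groups alone, a replicate block, skin and adipocyte covariates, and leaving out libraries. The test was first run on simulated data, whose outcome is not reported here and is not used as support for the calls. Libraries held 48301869 to 85195518 counts, and the biological coefficient of variation over genes was 27.3%. Gene positions and exon lengths come from GENCODE on mm10.

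The members, gene lists and markers were chosen with earlier results of these data known. Values in every library are printed for the 2 members of each role group with the highest mean CPM, the 2 with the smallest p for mXTX301 at day 7, Srebf1, Srebf2, Insig1, members called against their role group, and members called in a difference between days or drugs. From other lists, up to 4 genes with the smallest p are named. Lpcat3 and Scarb1 were named after their values were seen. Some genes of the neighbouring lists are not reported here.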

Additional observations from a re-analysis of the deposited data

Results flagged for a closer look

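Of 228 groups of 5 libraries examined, 14 held a library far from the other 4, where chance alone would give about 1 in 20. They covered the CPM of all 33 members and the levels of the 4 role groups and of the members together, in each of the 6 groups.

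Fdft1 measured 110 CPM in mXTX301 replicate 2 and 120 CPM in vehicle replicate 2 of day 7, each the highest of its group. Scd1 measured 430.2 CPM in mXTX301 replicate 5 of day 7, the highest, and Mvk 32.5 CPM in unmasked control replicate 5 of day 7, the lowest. At day 4, mXTX301 replicate 3 was the highest of its group for Ebp at 38.0 CPM and the lowest for Fasn at 536 CPM. Unmasked control replicate 2 of day 4 was the lowest of its group for Ebp at 30.4 CPM, Srebf1 at 154 CPM and Elovl6 at 51.7 CPM. Mvd measured 91.8 CPM in unmasked control replicate 3 and Acaca 156 CPM in unmasked control replicate 4 of day 4, each the highest. Vehicle replicate 5 of day 4 was the lowest of its group for Acaca at 94.5 CPM and for Fasn at 445 CPM. Acaca measured 189.8 CPM in vehicle replicate 4 of day 7, the highest.

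The unmasked control effect differed between days for 3 members by the edgeR test of day 7 minus day 4. The difference was 1.29 on the log2 scale for Tm7sf2, -0.39 for Acly and -0.41 for Me1.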

How the results depend on the processing

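Of 6600 gene values recomputed under alternatives, 6330 kept their call or their lack of one, 187 lost a call and 82 gained one. In 1 more, the sign changed and a call was gained. Values called in neither fit count as kept even where their sign changed. Scd1 with mXTX301 at day 7 reversed to -0.39 without mXTX301 replicate 5, within a range of -0.39 to 0.15 over the fits that left out 1 library. Of the members called lower, 25 of 28 with mXTX301 and 19 of 29 with the unmasked control at day 7 were called under every alternative, as were 7 of 20 and 1 of 11 at day 4. The cause of these changes was not tested.

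With mXTX301 at day 4, the members lower were 10 without the skin-rich libraries and 10 without the most skin-rich ones. In these fits 1741 and 1781 of 15482 genes were lower (2477 in the reported fit) and the members' medians were -0.36 and -0.34. The members higher were 0 under both and in a fit of the compared groups alone, where 11.5%, 13.3% and 11.9% of all genes were higher. With the unmasked control at day 4, the members lower were 7 in a fit of the compared groups alone, 1 without the skin-rich libraries and 5 without the most skin-rich ones, where 1010, 622 and 1194 of 15482 genes were lower (1665 in the reported fit) and the members' medians were -0.28, -0.32 and -0.28, against -0.29. With the unmasked control at day 7 they were 19 without the skin-rich libraries, where 890 of 15482 genes were lower (3378 in the reported fit) and the members' median was -0.60, against -0.63. DESeq2 called 1 member higher in vehicle tumours at day 7 against day 4, and 309 of 15482 genes. For the mXTX301 effect at day 7 minus day 4, members lower were 1 with total counts as library sizes and 1 without the most skin-rich libraries. In these fits 6.13% and 6.41% of all genes were lower. For the unmasked control effect they were 5 by DESeq2, 1 without the filter and 1 with the replicate block, where 4.53%, 0.981% and 1.99% of all genes were lower. They were 0 with the compared groups alone, with the covariates, without the skin-rich and without the most skin-rich libraries. In those fits 0.614%, 0.252%, 0% and 0.252% of all genes were lower. Members higher for that effect were 0 with the compared groups alone and without the skin-rich or the most skin-rich libraries, where 1.16%, 0% and 0.239% of all genes were higher. The margin for the most skin-rich libraries was chosen after seeing the data.

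Leaving out each replicate in turn gave 11 to 23 members lower with mXTX301 and 5 to 17 with the unmasked control at day 4, and 26 to 28 and 27 to 31 at day 7. In these fits 12.6% to 16.4% and 8.4% to 11.5% of all genes were lower at day 4, and 20.2% to 22.6% and 18.6% to 22.9% at day 7. Members higher were 0 to 1 with mXTX301 at day 4, where 13.8% to 16.8% of all genes were higher. They were 0 to 1 in vehicle tumours over time, where 0% to 3.55% were. The effect of mXTX301 at day 7 minus day 4 gave 0 to 2 lower and 0 to 1 higher, where 0.878% to 5.91% and 0.349% to 3.13% of all genes were called so. That of the unmasked control gave 0 to 12 lower, where 0.368% to 11.3% of all genes were.

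Deviations from group means correlated at 0.0465 on average for equal replicate numbers and -0.00421 for other numbers over 2000 genes, and 9 of 30 libraries correlated best with their own number. These values are descriptive and do not settle whether equal numbers mark paired libraries. With a replicate block, members lower were 20 and 28 with mXTX301 at day 4 and day 7, and 10 and 29 with the unmasked control. In that fit 15.3%, 22.3%, 10.3% and 21.5% of all genes were lower, in the same order. Without the skin-rich libraries, the share of higher calls among all calls was 62.8% with the unmasked control at day 7 and 61.7% at day 4, against 51.6% and 51.9%. With total counts, that share for the mXTX301 effect between days was 21.2%, against 39.1%.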
